A study of Caenorhabditis elegans with 6 samples.

Results

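The genes described here are 10 genes of protein folding in *Caenorhabditis elegans*. They are the cytosolic chaperones *hsp-1*, *hsp-90* and *hsp-110* with the J-domain co-chaperone *dnj-13*, the endoplasmic reticulum (ER) chaperones *hsp-3* and *hsp-4*, the mitochondrial chaperones *hsp-6* and *hsp-60*, and the transcription factors *hsf-1* and *xbp-1*. They were chosen by WormBase symbol, *hsp-90* being the current name of *daf-21*. All 10 were found among the 20392 genes of the deposited count table, and all 10 were among the 13460 genes with enough counts to be tested.

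Total RNA was sequenced from whole first-stage (L1) larvae, 3 libraries from the mutant strain XA6227, genotype *mrg-1* -/-, and 3 from the wild-type strain N2. The gene *mrg-1* encodes a chromodomain protein of chromatin. The mutant larvae were the offspring of 2000 to 4000 homozygous adults picked by hand for lacking the balancer, whereas a like number of wild-type adults were washed from plates, so genotype and handling cannot be told apart. In both strains the embryos hatched in M9 buffer over 18 h and the larvae were then fed for 2 h and 30 min, and the labels name neither the allele nor separate cultures beyond calling the libraries biological replicas. P-values therefore measure the spread among these libraries.

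Chaperones hold unfolded proteins and help them to fold. In the cytosol, HSP70 proteins work with J-domain proteins, which bring them substrates and trigger ATP hydrolysis, with HSP110, which exchanges their nucleotide, and with HSP90, which takes over kinases and hormone receptors. The ER has its own HSP70, called BiP, and the mitochondrial matrix has an HSP70 and the barrel-shaped chaperonin HSP60. HSF-1 drives cytosolic chaperone genes, and XBP-1 drives ER chaperone genes once the ER sensor IRE-1 has cut its messenger RNA for splicing. In *C. elegans*, *hsp-4* serves as a standard reporter of the ER unfolded protein response, and *hsp-6* and *hsp-60* as reporters of the mitochondrial one.

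Library totals were 20917771 to 24123189 counts in the mutant and 19238422 to 39063186 in the wild type, and levels are given as CPM, counts brought to a common library size with edgeR's TMM factors. Mitochondrially encoded genes took 8.42% to 12.43% of the counts in the mutant libraries and 10.64%, 23.12% and 45.56% in wild-type libraries 1, 2 and 3. The *mrg-1* transcript stood at 2.11, 5.61 and 5.15 CPM in the mutant libraries and at 30.2, 15.9 and 18.8 CPM in the wild-type ones. Summed over 8 body wall muscle markers the level was 13404 to 15582 CPM in the mutant and 6829 to 11566 CPM in the wild type, without overlap. Singly, all 8 had a log2 fold change above 0, but 0 passed in edgeR, and the groups lay apart in only 4 of them (mutant higher in 14.4% of all genes tested). The 7 intestinal markers summed to 1332 to 1817 CPM in the mutant and to 2188, 1261 and 581 CPM in wild-type libraries 1, 2 and 3. The 8 markers of hypodermis and cuticle summed to 17.1 to 26.9 CPM in the mutant and 31.6 to 78.7 CPM in the wild type, most of it from *nhr-23* (12 to 19.3 CPM, against 29.2 to 72.2; edgeR adjusted p = 0.0899). They did not move together, since of the 4 tested the collagen gene *rol-6* rose (1.57 to 2.69 CPM in the mutant and 0 counts in every wild-type library; edgeR adjusted p = 0.0284). The 8 neuronal markers (1380 to 1639 CPM, against 1339 to 1824), the 8 germ line markers (59.3 to 74.6, against 58.2 to 105) and the 10 genes of yolk, eggshell and oocytes (20.5 to 39.5, against 21.01 to 41.03) overlapped between mutant and wild type as sums. Singly, 7 of the 8 neuronal markers had a log2 fold change above 0, and 0 of the 8 passed in edgeR. Only *ric-4* went the other way (log2 fold change -0.90, edgeR adjusted p = 0.185). It was the largest neuronal marker in wild-type libraries 2 and 3 (495 and 692 CPM) and thus weighed most in their sums. Among the genes of yolk, eggshell and oocytes, *cpg-2* fell (at most 0.451 CPM in the mutant and 3.78 to 14.1 in the wild type; edgeR adjusted p = 0.0373). In the same list, *vit-1* had 1.79 to 4.99 CPM in the mutant and 0.220 to 0.336 in the wild type (edgeR adjusted p = 0.0742). The adult collagen gene *col-19* had at most 2 counts in a mutant library and 1 in a wild-type library. In bulk RNA of whole larvae, fewer cells of a type and less RNA per cell cannot be told apart. The part of these differences in the values below was not tested.

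The mitochondrial chaperonin gene *hsp-60* was lower in *mrg-1* larvae, and the abundant cytosolic chaperone genes *hsp-90* and *hsp-1* had lower levels in every mutant library without passing the test. The ER chaperone gene *hsp-4* had a higher level in every mutant library and missed the threshold narrowly. Of the 10 genes, 1 passed the test across all genes, *hsp-60*, which fell 2.31-fold. In edgeR's quasi-likelihood test at a Benjamini-Hochberg adjusted p of 0.05, 2.6% of the 13460 genes passed, 0.847% lower and 1.75% higher, while DESeq2 called 9.78% of the genes it tested and limma voom 2.72%. Those tools called *hsp-1*, *hsp-90* and *hsp-4* as well. The 3 mutant libraries lay below the 3 wild-type libraries in 4 genes (*hsp-1*, *hsp-90*, *dnj-13* and *hsp-60*) and above them in 3 (*hsp-4*, *hsf-1* and *xbp-1*). Over all genes tested, the groups lay apart with the mutant lower in 12% and higher in 14.4%. In *hsp-110*, *hsp-3* and *hsp-6* the groups overlapped.

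Together the 10 genes took 1.63%, 1.72% and 2.03% of the nuclear counts in mutant libraries 1, 2 and 3, and 3.22%, 2.90% and 2.61% in wild-type libraries 1, 2 and 3. By this measure each mutant library spent a smaller share on them than any wild-type library. Of all counts, with the mitochondrially encoded ones included, the 10 genes took 1.43%, 1.58% and 1.80% in the mutant libraries and 2.88%, 2.23% and 1.42% in the wild-type ones, so that wild-type library 3, with the largest mitochondrial share, lay lowest and the groups overlapped. Most of that sum came from *hsp-90* and *hsp-1*, which made up 62.2% to 70.2% of it in the mutant and 72.5% to 76.2% in the wild type.

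**Figure D1:**
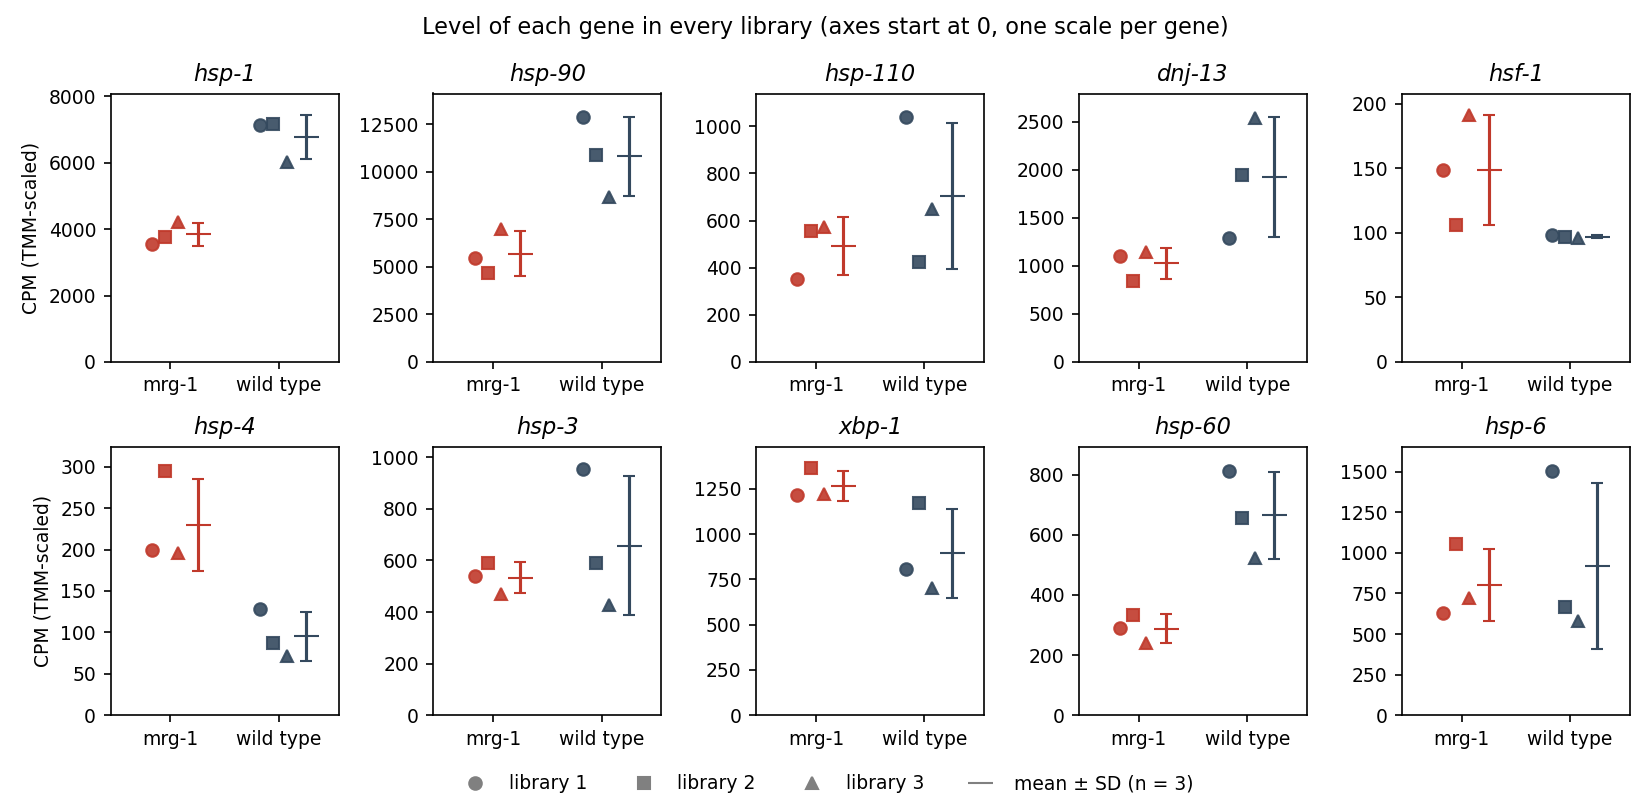
TMM-scaled CPM of each of the 10 genes in the 3 mrg-1 mutant libraries (left, red) and the 3 wild-type libraries (right, dark), with a separate vertical axis from 0 for each gene; the bar is the mean ± SD. The mutant points of hsp-1 (3546 to 4224 CPM) lie below the wild-type points (6011 to 7181 CPM), and those of hsp-4 (196 to 294 CPM) lie above them (71.1 to 128 CPM).

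*hsp-90* (WBGene00000915; chromosome V, 14684918 to 14688545, plus strand in WBcel235) encodes the only cytosolic HSP90 of the worm. Its level was 5441, 4680 and 6971 CPM in mutant libraries 1, 2 and 3, against 12863, 10856 and 8678 CPM in the wild-type libraries. The groups did not overlap, and the highest mutant library and the lowest wild-type one, both numbered 3, came closest. The mean was 5698 ± 1167 CPM in the mutant and 10799 ± 2093 CPM in the wild type (SD, n = 3 each), 1.89-fold lower in the mutant. Its log2 fold change of -0.92 (SE 0.27) did not pass the test (edgeR adjusted p = 0.089; DESeq2 0.0444; limma voom 0.0381). When 1 library was left out, it passed only without wild-type library 3 (edgeR adjusted p = 0.0424). Without mutant library 1, 2 or 3 the edgeR adjusted p was 0.331, 0.334 and 0.22, and without wild-type library 1 or 2 it was 0.0807 and 0.155. In all, 12 of 16 alternatives did not call it. Against wild-type library 1 alone the log2 fold change was -1.16. A comparison with that single library, here and below, takes its spread from the mutant libraries alone and assumes that the wild type varies like them. No p-value is given for it. It is counted among the 16 alternatives, but a call gained or lost there is weak evidence. An opposite-strand gene, *C47E8.4*, shares 4 exon bases with it in the annotation.

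*hsp-1* (WBGene00002005; chromosome IV, 17278959 to 17281330, plus strand) encodes the constitutive cytosolic HSP70. It stood at 3546, 3776 and 4224 CPM in the mutant libraries, against 7124, 7181 and 6011 CPM in the wild-type libraries. Both groups were tight, with a coefficient of variation of 8.95% in the mutant and 9.74% in the wild type, and they lay well apart. The level was 1.76-fold lower in the mutant, a log2 fold change of -0.82 (SE 0.24; edgeR adjusted p = 0.0925; DESeq2 0.0373; limma voom 0.0373). Counted per kilobase of gene length, *hsp-90* ranked 16 and *hsp-1* ranked 22 among the 13460 genes in the mutant, against 8 and 11 in the wild type.

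*dnj-13* (WBGene00001031; chromosome II, 11545701 to 11547360, plus strand) encodes a class B J-domain protein, the kind that feeds substrates to HSP70 and, in worm and human proteins tested in vitro, works with HSP70 and HSP110 to dissolve aggregates. It had 1097, 839 and 1139 CPM in the mutant libraries, against 1286, 1941 and 2538 CPM in the wild-type libraries. The groups did not overlap, but wild-type library 1 lay close to the mutant ones. On the log2 scale the fold change was -0.91 (SE 0.29, edgeR adjusted p = 0.116). Against wild-type library 1 alone it was -0.31, and without that library it was -1.13 (edgeR adjusted p = 0.0289). Leaving that library out was the only one of 16 alternatives to call *dnj-13*, and 15 did not (among them DESeq2, adjusted p = 0.0844, and limma voom, 0.0855). *dnj-13* was the strongest of the 29 genes named *dnj*, with 730 CPM per kilobase in the mutant and 1369 in the wild type, ahead of *dnj-19* with 251 and 276. Of the 28 *dnj* genes tested, 25 had a log2 fold change below 0 (median -0.63), against 51.3% of all genes (median -0.03). In edgeR 0 of the 28 passed. DESeq2 called 4 of them lower, and 651 of the 13460 genes tested in edgeR.

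*hsp-110* (WBGene00016250; chromosome III, 8443910 to 8446909, minus strand) encodes the HSP110 that exchanges nucleotide on HSP70. It had 351, 554 and 571 CPM in the mutant libraries, against 1040, 426 and 648 CPM in the wild-type libraries. The groups overlapped, since wild-type library 2 lay below mutant libraries 2 and 3. Its log2 fold change was -0.52 (SE 0.34, edgeR adjusted p = 0.426), and it was -0.13 without wild-type library 1 and -1.06 against that library alone.

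*hsf-1* (WBGene00002004; chromosome I, 11953507 to 11963085, minus strand) encodes the heat shock transcription factor. It had 148, 106 and 192 CPM in the mutant libraries, against 98.3, 96.7 and 95.9 CPM in the wild-type libraries. The coefficient of variation was 28.7% in the mutant and 1.24% in the wild type, whose libraries differed widely in other genes. Every mutant library was above every wild-type one, library 2 narrowly. The log2 fold change was 0.62 (SE 0.29, edgeR adjusted p = 0.268), between 0.40 and 0.91 over the alternatives, none of which called it. As a group, the mutant libraries thus had more of its messenger RNA and less of that of *hsp-90*, *hsp-1* and *dnj-13*. Among the mutant libraries this did not hold, since library 3 was the highest in *hsf-1* and also in *hsp-90*, *hsp-1* and *dnj-13*. A link between these levels was not tested.

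The ER chaperones *hsp-4* and *hsp-3* are paralogs, both worm forms of BiP. *hsp-4* (WBGene00002008; chromosome II, 7350112 to 7352645, minus strand) had 199, 294 and 196 CPM in the mutant libraries, against 128, 86.6 and 71.1 CPM in the wild-type libraries. All mutant libraries were higher, library 2 most, and wild-type library 1 came nearest to them. The mean was 230 ± 55.9 CPM in the mutant and 95.2 ± 29.2 CPM in the wild type (SD, n = 3 each), a ratio of 2.42. The log2 fold change of 1.27 (SE 0.31) stood at the edge of the threshold without passing it (edgeR adjusted p = 0.051). It passed in 9 of 16 alternatives, among them DESeq2 (adjusted p = 0.00583), limma voom (0.0368) and edgeR without wild-type library 1 (0.0203), and the log2 fold change was 0.87 against wild-type library 1 alone.

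*hsp-3* (WBGene00002007; chromosome X, 6089028 to 6092124, minus strand) had 539, 590 and 472 CPM in the mutant libraries, against 954, 589 and 427 CPM in the wild-type libraries. Wild-type library 1 was the highest of all and wild-type library 3 the lowest, so the groups overlapped. Its log2 fold change was -0.30 (SE 0.31, edgeR adjusted p = 0.625), and it turned to 0.07 without wild-type library 1 and to 0.09 on the authors' deposited log2 values. The same order of wild-type libraries, 1 highest and 3 lowest, was seen in *hsp-90*, *hsp-4*, *hsp-6*, *hsp-60* and *hsf-1*. The summed markers of intestine and of body wall muscle (11566, 8356 and 6829 CPM in libraries 1, 2 and 3) had it too. The mitochondrial share ran in the opposite order. The part of any of these in the spread of *hsp-3* was not tested.

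Within the BiP pair the shares of the groups did not overlap, though 3 libraries against 3 cannot pass the test used. *hsp-4* made up 31.0%, 37.8% and 33.6% of the pair's level per kilobase in the mutant libraries, against 14.0%, 15.2% and 16.8% in the wild-type libraries. The share averaged 34.1% ± 3.41 in the mutant and 15.3% ± 1.43 in the wild type (SD, n = 3 each), a difference of 18.8 percentage points. The groups lay far apart, and wild-type library 1, which held the most of either transcript among the wild types, had the lowest share. A two-sided exact permutation test gave p = 0.1, the smallest that 3 libraries against 3 allow, and 0.15 when adjusted over the 3 pairs compared. A share within a library does not depend on how libraries are scaled. How reads common to these similar genes were counted is not given in the sources used here.

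**Figure D2:**
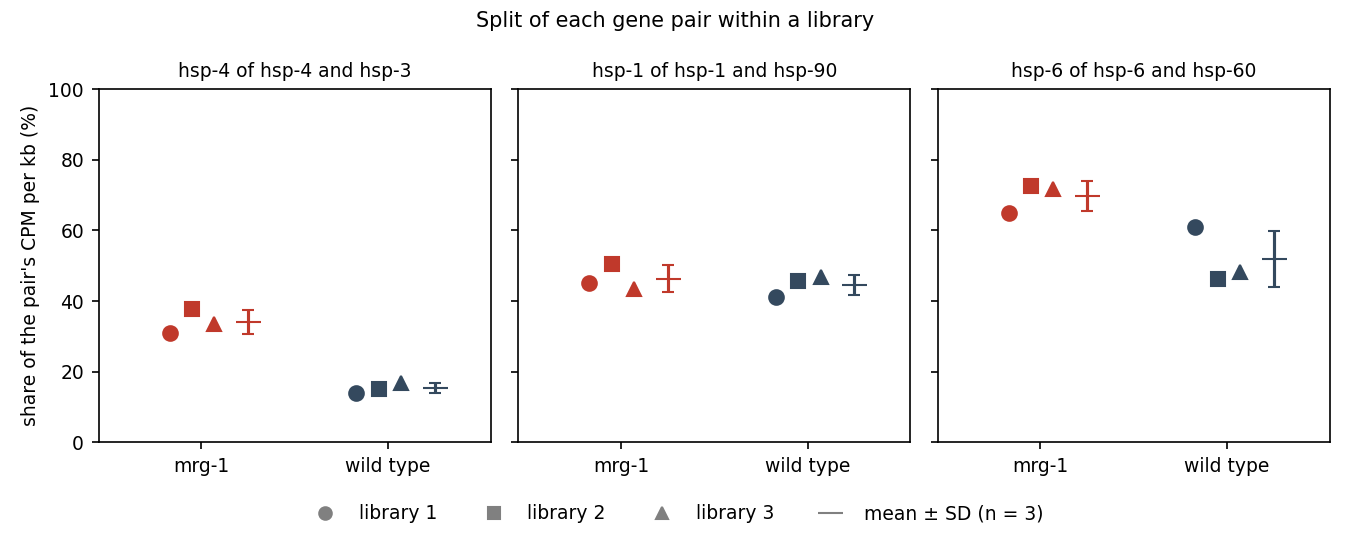
Share of the first gene in the pair's summed CPM per kilobase, in percent, for each mrg-1 mutant library (left, red) and each wild-type library (right, dark), with mean ± SD. The share of hsp-4 was 31.0% to 37.8% in the mutant and 14.0% to 16.8% in the wild type, whereas that of hsp-1 against hsp-90 overlapped.

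*xbp-1* (WBGene00006959; chromosome III, 4193809 to 4195358, plus strand) encodes the transcription factor made from a spliced messenger RNA in the ER unfolded protein response. A count per gene does not tell the spliced from the unspliced form. It had 1215, 1362 and 1219 CPM in the mutant libraries, against 808, 1171 and 703 CPM in the wild-type libraries. Wild-type library 2 reached almost to the mutant libraries, which were alike. A log2 fold change of 0.50 (SE 0.27) was not called (edgeR adjusted p = 0.319), nor was it in any alternative.

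*hsp-60* (WBGene00002025; chromosome III, 1619742 to 1625803, plus strand) encodes the mitochondrial chaperonin. It had 288, 334 and 240 CPM in the mutant libraries, against 813, 655 and 524 CPM in the wild-type libraries. Every mutant library lay below every wild-type one by a clear gap. The mean was 287 ± 47.4 CPM in the mutant and 664 ± 145 CPM in the wild type (SD, n = 3 each). The transcript fell 2.31-fold, with a log2 fold change of -1.21 (SE 0.27, edgeR adjusted p = 0.0407; DESeq2 0.00327; limma voom 0.0283). Wild-type library 1 had the highest *hsp-60* level, and against it alone the log2 fold change was -1.48. Mitochondrially encoded genes took 10.64% of its counts, against 23.12% and 45.56% in wild-type libraries 2 and 3. The part of this share in the *hsp-60* difference was not tested. The call was lost in 6 of 16 alternatives, which were leaving out mutant library 1, 2 or 3 (edgeR adjusted p = 0.181, 0.134 and 0.207) or wild-type library 2 (0.0905), library totals (0.216) and limma on the deposited log2 values (0.173).

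*hsp-6* (WBGene00002010; chromosome V, 4824124 to 4826760, minus strand) encodes the mitochondrial HSP70. It had 631, 1052 and 723 CPM in the mutant libraries, against 1505, 668 and 579 CPM in the wild-type libraries. The coefficient of variation was 27.6% in the mutant and 55.7% in the wild type, the widest wild-type spread of the 10 genes, and the groups overlapped. The log2 fold change was -0.19 (SE 0.36, edgeR adjusted p = 0.809), and it was 0.36 without wild-type library 1 and -0.89 against that library alone. In the mitochondrial pair *hsp-6* held 64.9%, 72.6% and 71.8% of the level per kilobase in the mutant libraries, against 61.0%, 46.3% and 48.3% in the wild-type libraries. The groups did not overlap, but wild-type library 1 was 3.91 points below the lowest mutant library. The difference of 17.9 points gave p = 0.1 in the two-sided exact permutation test, again the smallest possible, and 0.15 over the 3 pairs.

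In the cytosolic pair the split did not separate the strains. *hsp-1* made up 45.2%, 50.5% and 43.4% of the summed level of *hsp-1* and *hsp-90* per kilobase in the mutant libraries, against 41.2%, 45.6% and 46.7% in the wild-type libraries. The groups overlapped, with a difference of 1.88 points (two-sided exact permutation p = 0.6, also 0.6 over the 3 pairs).

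The gene next to *hsp-60* on the left is *Y22D7AL.10*, on the opposite strand of chromosome III from 1617151 to 1618929, so that the 2 genes point away from each other across 812 bases. It encodes HSP10, the lid of the chaperonin. It had 69.3, 64.6 and 41.8 CPM in the mutant libraries, against 108, 133 and 80.5 CPM in the wild-type libraries. The groups did not overlap, but the log2 fold change of -0.87 (SE 0.32) did not pass the test (edgeR adjusted p = 0.16).

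**Figure D3:**
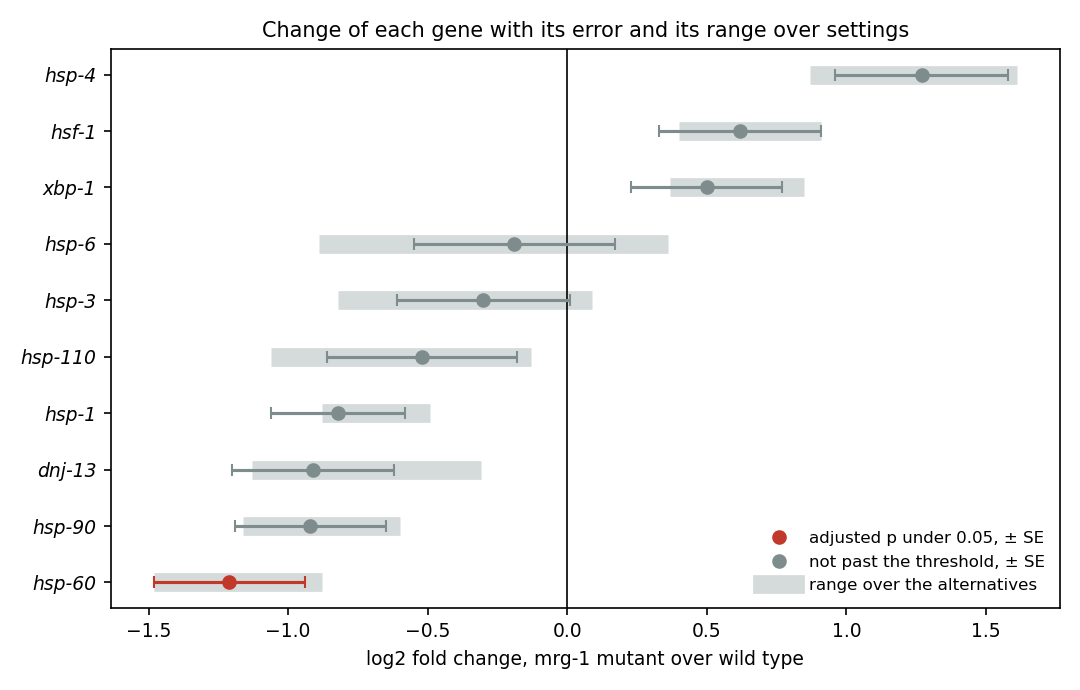
Log2 fold change of each gene, mrg-1 mutant over wild type, with its SE (points and bars, red where the adjusted p was under 0.05) and the range over the 16 alternatives (grey band). The band of hsp-60 runs from -1.48 to -0.88 and that of hsp-4 from 0.87 to 1.61, whereas those of hsp-3 and hsp-6 cross 0.

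Ordered by level per kilobase in the mutant, *hsp-90* (2165 ± 443 CPM per kilobase) and *hsp-1* (1850 ± 166) came first with overlapping ranges. *xbp-1* (884 ± 58.9), *dnj-13* (730 ± 116) and *hsp-6* (302 ± 83.4) followed, each with a range clear of its neighbours. Then came *hsp-3* (198 ± 22.1), *hsp-110* (181 ± 45.1), *hsp-60* (128 ± 21.2) and *hsp-4* (103.8 ± 25.2), where neighbours overlapped, and *hsf-1* (63.9 ± 18.4; SD, n = 3) was lowest, below the range of *hsp-4*. In the wild type *hsp-90* (4103 ± 795 CPM per kilobase) and *hsp-1* (3256 ± 317) again overlapped at the top, with *dnj-13* (1369 ± 446) next. From *xbp-1* (624 ± 171) through *hsp-6* (346 ± 193), *hsp-60* (297 ± 64.8) and *hsp-110* (259 ± 115) to *hsp-3* (244 ± 100) neighbours overlapped. *hsp-4* (42.9 ± 13.2) and *hsf-1* (41.7 ± 0.518; SD, n = 3) shared the lowest place. *xbp-1* thus lay above *dnj-13* in the mutant and below it in the wild type, and *hsp-4* was clear of *hsf-1* only in the mutant, where its lowest library (88.6 CPM per kilobase) was above the highest of *hsf-1* (82.3). Lengths are the deposited ones, 93.9% to 111.6% of the annotated exon bases.

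The wild-type libraries were not ordered alike in all genes. Library 1 was the highest wild type in *hsp-90*, *hsp-110*, *hsp-3*, *hsp-4*, *hsp-6*, *hsp-60* and *hsf-1*, and the lowest in *dnj-13*. Against it alone, the median log2 fold change of the 10 genes was -0.85, compared with -0.41 against all 3 and -0.03 without it.

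The other folding genes came from 6 lists of 81 rows, of which 75 were tested. In edgeR 2 of the 75 fell and 0 rose. Before adjustment, p was under 0.05 for 18 lower and 3 higher genes, and for 10.2% (lower) and 9.29% (higher) of all genes tested. DESeq2, which called 9.78% of all genes it tested, called 12 lower and 2 higher, and limma voom, which called 2.72%, called 4 lower and 0 higher. By direction, among the 13460 genes tested in edgeR, DESeq2 called 651 lower and 747 higher, and limma voom 117 lower and 249 higher. Log2 fold changes were below 0 in 61 of the 75 and in 51.3% of all genes tested, with a median of -0.37 against -0.03 over all. Scaled by library totals the medians were -0.08 and 0.27, and on the deposited log2 values 0.03 and 0.35, so that the sign of the list's median turned there while it stayed below that of all genes.

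**Figure D4:**
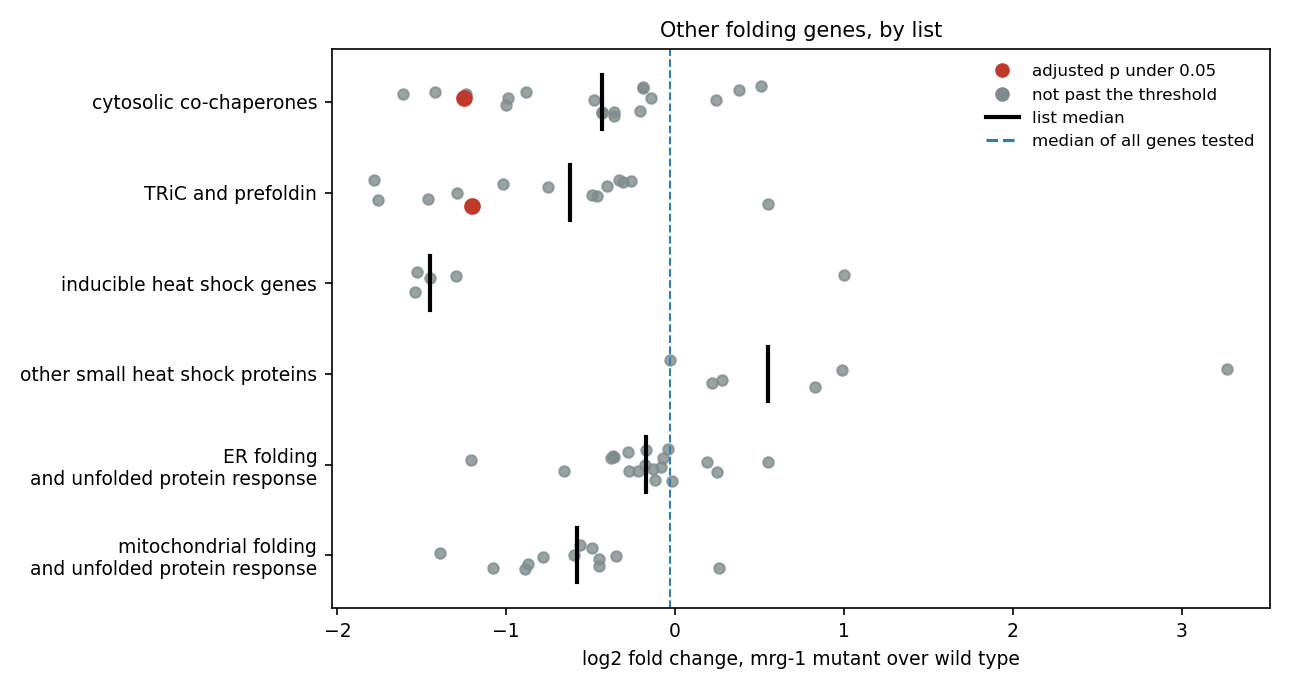
Log2 fold change, mrg-1 mutant over wild type, of the tested genes of 6 lists of other folding genes (points, red where the adjusted p was under 0.05), with each list's median (black bar) and the median of all genes tested (dashed line, -0.03). The median of the inducible heat shock genes (-1.45, 5 tested) lies furthest left of the line. Those of TRiC and prefoldin (-0.62), mitochondrial folding (-0.58), cytosolic co-chaperones (-0.43) and ER folding (-0.17) also lie left of it. That of the other small heat shock proteins (0.55) lies right of it.

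The chaperonin TRiC folds actin and tubulin, and prefoldin hands it substrates. Of 14 genes tested, 1 fell (0.847% of all genes tested) and 0 rose. In 13 the log2 fold change was below 0 (51.3% of all genes tested), with a median of -0.62. The subunit *cct-6* had 136, 221 and 163 CPM in the mutant libraries, against 383, 479 and 334 CPM in the wild-type libraries. The groups did not overlap, and the log2 fold change was -1.20 (SE 0.28, edgeR adjusted p = 0.046; DESeq2 0.00622). In 7 of the 14 the mutant libraries all lay below the wild-type ones, as in 12% of all genes tested. The more abundant *cct-5* (698 ± 14.8 CPM in the mutant and 880 ± 150 in the wild type) and *cct-7* (806 ± 37.4 and 967 ± 225; SD, n = 3 each) differed less, with log2 fold changes of -0.33 and -0.26 (edgeR adjusted p = 0.486 and 0.608). *cct-4*, also more abundant than *cct-6*, had 184, 240 and 257 CPM in the mutant libraries, against 543, 426 and 414 CPM in the wild-type libraries. Its log2 fold change was -1.02 (SE 0.26, edgeR adjusted p = 0.0604; DESeq2 0.014; limma voom 0.0481).

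Of 19 cytosolic co-chaperones, 1 fell (0.847% of all genes tested) and 0 rose. In 16 the log2 fold change was below 0 (51.3% of all genes tested), with a median of -0.43. *daf-41*, the worm p23, which binds HSP90 in its closed state, had 373, 247 and 376 CPM in the mutant libraries, against 674, 1010 and 677 CPM in the wild-type libraries. The groups lay well apart, and the log2 fold change was -1.25 (SE 0.29, edgeR adjusted p = 0.0413; DESeq2 0.00682). The calls of *cct-6* and *daf-41* were each lost in 7 of 16 alternatives (without mutant library 1, 2 or 3 or wild-type library 2, against wild-type library 1 alone, with library totals and on the deposited log2 values), with log2 fold changes of -1.39 to -0.89 and -1.34 to -0.92. Another HSP90 partner, *cdc-37*, which brings it kinases, was picked out after its values were seen. It had 125, 91.4 and 133 CPM in the mutant libraries, against 198, 241 and 258 CPM in the wild-type libraries (edgeR adjusted p = 0.0735; DESeq2 0.0249). The HSP70 co-chaperones *dnj-19* (log2 fold change -0.14) and *dnj-12* (-0.19), class A J-domain proteins, had edgeR adjusted p values of 0.826 and 0.723.

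In the ER list, 0 of 19 genes passed in edgeR, with a median log2 fold change of -0.17. Before adjustment p was under 0.05 for 1 lower and 1 higher gene (10.2% and 9.29% of all genes tested). DESeq2 and limma voom each called 1 lower, as they did 651 and 117 of the 13460 genes tested. The calcium-binding lectin chaperone *crt-1* (668 ± 213 CPM in the mutant and 561 ± 328 in the wild type), the disulfide isomerase *pdi-3* (633 ± 2.11 and 641 ± 161) and *pdi-2* (506 ± 97.8 and 609 ± 292; SD, n = 3 each) overlapped between the groups. The 3 stress sensors had log2 fold changes of -0.08 for *ire-1*, 0.19 for *pek-1* and -0.36 for *atf-6* (edgeR adjusted p = 0.949, 0.731 and 0.666). The membrane lectin chaperone *cnx-1*, like the sensors named after its values were seen, stood at 131, 115 and 191 CPM in the mutant libraries against 453, 258 and 302 CPM in the wild-type ones. It was the gene DESeq2 and limma voom called, with a log2 fold change of -1.21 (SE 0.31, edgeR adjusted p = 0.0595).

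In the mitochondrial list 0 of 12 genes passed in edgeR, as with both other tools (0 in each). Before adjustment 3 lower and 0 higher had p under 0.05 (10.2% and 9.29% of all genes tested). Of the 12, 11 had a log2 fold change below 0 (51.3% of all genes tested), with a median of -0.58. The transcription factor *atfs-1*, which drives the mitochondrial unfolded protein response, had 218 ± 18.98 CPM in the mutant and 306 ± 92.1 in the wild type (SD, n = 3 each), with a log2 fold change of -0.49 (edgeR adjusted p = 0.362). For the J-domain protein *dnj-10* the log2 fold change was -0.56 (edgeR adjusted p = 0.314).

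Of 9 rows of inducible heat shock genes, 5 were tested and 0 passed in edgeR, DESeq2 or limma voom. Before adjustment 1 lower gene had an edgeR p under 0.05 (10.2% of all genes tested). Of the 5, 4 had a log2 fold change below 0 (51.3% of all genes tested), with a median of -1.45. The small heat shock gene *hsp-16.2* had 13.4, 21.9 and 50.3 CPM in the mutant libraries, against 56.2, 43.8 and 148 CPM in the wild-type libraries, with wild-type library 3 highest and the groups overlapping. Its log2 fold change was -1.53 (SE 0.54, edgeR adjusted p = 0.145). The inducible *hsp-70* had 0.546, 0.907 and 5.11 CPM in the mutant libraries and 2.74, 0.513 and 0.0365 CPM in the wild-type ones. The 4 rows of *hsp-16.1* and *hsp-16.48*, symbols that each stand for a pair of near-identical copies, were at 0 in every library. Such copies share reads, so this 0 is uncertain. Of 8 other small heat shock genes, 6 were tested and 0 passed in edgeR or limma voom. DESeq2 called 2 higher (747 of the 13460 genes tested in edgeR), and edgeR gave p under 0.05 before adjustment to 2 higher (9.29% of all genes). Both times these were *hsp-43* and *hsp-12.3*, the latter named after its values were seen. *hsp-12.3* was barely detected, with 23, 42 and 53 counts in the mutant libraries and 2, 2 and 8 in the wild-type ones. *hsp-43* had 347, 216 and 257 CPM in the mutant libraries, against 140, 136 and 137 CPM in the wild-type libraries, with a log2 fold change of 0.99 (SE 0.27, edgeR adjusted p = 0.0715). *hsp-25* (log2 fold change 0.22) and *hsp-17* (-0.03) had edgeR adjusted p values of 0.681 and 0.970.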

How the data were processed

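The authors deposited raw counts per gene, with a gene length in bases, and normalized log2 values. Recomputed from the counts, a deposited log2 value was log2 of 8 plus the count scaled to a library total of 24838462. Per the submitters' processing notes the build is ce10; aligner, counter, annotation and strand setting are not named there or in the labels. Positions were looked up by identifier in the Ensembl annotation of WBcel235, which held 19870 of the 20392 identifiers. In the tables, 0 sample columns had no sample. Libraries were made from 2 ng of RNA with a NuGEN Ovation v2 kit, per the labels' protocols. No 2 libraries agreed within sampling noise (chi-square per gene of at least 59.6).

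The main test was edgeR 4.0.16's quasi-likelihood test (R 4.3.3) with TMM factors and filterByExpr defaults, a term for group alone and p-values adjusted by Benjamini-Hochberg over 13460 genes at 0.05; SE is the absolute log2 fold change over the square root of F. The common dispersion was 0.339. Alternatives were DESeq2 1.42.0, limma 3.58.1 with voom and on the deposited log2 values, other scalings and filters, a replicate block, no mitochondrial genes, each library left out, and wild-type library 1 alone. Pair shares used CPM per kilobase of deposited length and exact permutation tests (scipy 1.17.1). Figures were drawn with matplotlib 3.10.9.

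The 10 genes and all lists were chosen with earlier results of these data known. Named are the 10 genes and, from each list, called genes and up to 3 of the highest level per kilobase. The *dnj* family was taken by symbol. In the lists, *mge-1* and *opt-2* matched no row, and *hsp-16.11* and *hsp-16.49* stand in the table under the symbols *hsp-16.1* and *hsp-16.48*.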

Additional observations from a re-analysis of the deposited data

How the results depend on the processing

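Over all genes, 350 calls (236 higher, 114 lower) became 215 with library totals (204 higher, 11 lower), 1498 with DESeq2, 734 without a filter, and 35 to 1043 when 1 library was left out, the lowest without mutant library 1 and the highest without wild-type library 1. On the deposited log2 values limma called 480 higher and 34 lower. Library totals and the deposited log2 values moved the median log2 fold change of all genes up by 0.302 and 0.377. Relative to the median of its own setting, *hsp-60* stood at -1.22 under both, and *hsp-4* at 1.25 and 1.26. Of the 10 genes, 1 was called, against 2 with DESeq2's size factors, no filter, a CPM filter, no mitochondrial genes or wild-type library 1 alone, 4 with DESeq2 or limma voom, 0 with library totals, and 0 to 3 when 1 library was left out. Of the other folding genes 2 were called, against 0 with library totals, 14 with DESeq2, 4 with limma voom, 1 on the deposited log2 values, 7 without a filter, and 0 to 8 when 1 library was left out. With the replicate number as a block 2 of the 10 genes, 5 of the other folding genes and 431 of all genes were called. The numbers did not pair the libraries: deviations from the group means of same-numbered libraries correlated at -0.00482, 0.0433 and 0.093, and mutant libraries 1 and 2 correlated best with another number. The log2 fold change of *hsp-3* turned to 0.09 on the deposited log2 values and ran from -0.51 to 0.07 when 1 library was left out, turning without wild-type library 1, and that of *hsp-6* to 0.02 with library totals, 0.23 on the deposited log2 values and -0.41 to 0.36 when 1 library was left out, again turning without wild-type library 1; the cause was not tested. Leaving out 1 library, the difference in the share of *hsp-1* ran from -0.198 to 3.36 points, that of *hsp-4* from 16.96 to 20.3 and that of *hsp-6* from 15.2 to 22.5. In all, 151 of 192 values for single genes kept their direction and their side of the threshold, 20 dropped below it, 16 passed it and 5 changed sign. Most of the 151 came from genes that were not called and stayed so. All 20 losses were those of *hsp-60*, *daf-41* and *cct-6*, the genes called in the main test. With 3 libraries a group, counting error is small for these genes and the spread between libraries sets the precision.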
